A study of Rattus norvegicus with 14 samples.

Results

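Mitochondrial fatty acid oxidation was followed through 9 genes: Cpt1a and Cpt2 of the carnitine shuttle, the acyl-CoA dehydrogenases Acadvl, Acadl, Acadm and Acads, the trifunctional protein subunits Hadha and Hadhb, and the pyruvate dehydrogenase kinase Pdk4. The members were every probe set whose platform symbol is, or includes as a whole symbol, one of these names, which gave 12 of the 8740 probe sets besides controls, and 9 of 4736 named genes. Hadha had 3 probe sets, Acadl had 2 and the other genes had 1 each. None of the 9 genes encodes an enzyme that makes ketone bodies, so ketone body metabolism is covered below by other genes.

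The RNA came from livers of male rats, 74 days old, that had been fed for 53 days a diet without enough vitamin A (deficient) or with it (sufficient). Each diet had 7 Affymetrix arrays: 4, numbered 1 to 4, whose targets were made from about 10 µg of total RNA, and 3, numbered 1, 2 and 4, made from about 2 µg. Values sharing diet and number were averaged, which gave n = 4 per diet, and the averages are called livers here, although the labels do not state which arrays share a liver or whether RNA was pooled. In each diet, liver 3 rests on its 10 µg array alone. The p-values of the diet comparison therefore measure the spread between these averages, and precision is limited by how few arrays there were. Those for the amount of RNA and its interaction with diet come from single arrays.

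Fatty acids are burned in the mitochondrial matrix. Long-chain acyl groups enter as carnitine esters, and each turn of the beta-oxidation spiral then removes an acetyl group through a dehydrogenase, a hydratase, a second dehydrogenase and a thiolase. In liver much of the acetyl-CoA goes on to ketone bodies during fasting. Several of the genes are known targets of PPAR-alpha, a nuclear receptor that binds DNA with RXR, which is itself a receptor for a retinoic acid isomer. The comparison of the diets asks whether transcripts of this pathway differ in liver when vitamin A is lacking.

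A level is the log2 of a scaled intensity plus 16, on which an intensity of 0 is 4, and a difference is deficient minus sufficient on that scale, with its standard error (SE). None of the 9 genes passed the diet test, in either direction, by limma with a Benjamini-Hochberg adjusted p under 0.05 over all 5244 tested probe sets. Over all tested probe sets 1.72% passed (90 probe sets, 39 higher and 51 lower in deficient livers; 17 higher and 60 lower when all arrays were brought to the same median). Of the 11 tested member probe sets, 2 had an unadjusted p under 0.05, those of Cpt1a and Pdk4, against a background of 14.5%. In 0 of the 11 did the deficient and sufficient livers fail to overlap, against 8.91% of all tested probe sets. The median difference of the 11 was -0.01, and that of all tested probe sets was 0.04. Cpt1a was the member with the largest positive difference and Pdk4 the one with the largest negative difference, while the other 9 tested probe sets lay between -0.18 and 0.10.

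**Figure D1:**
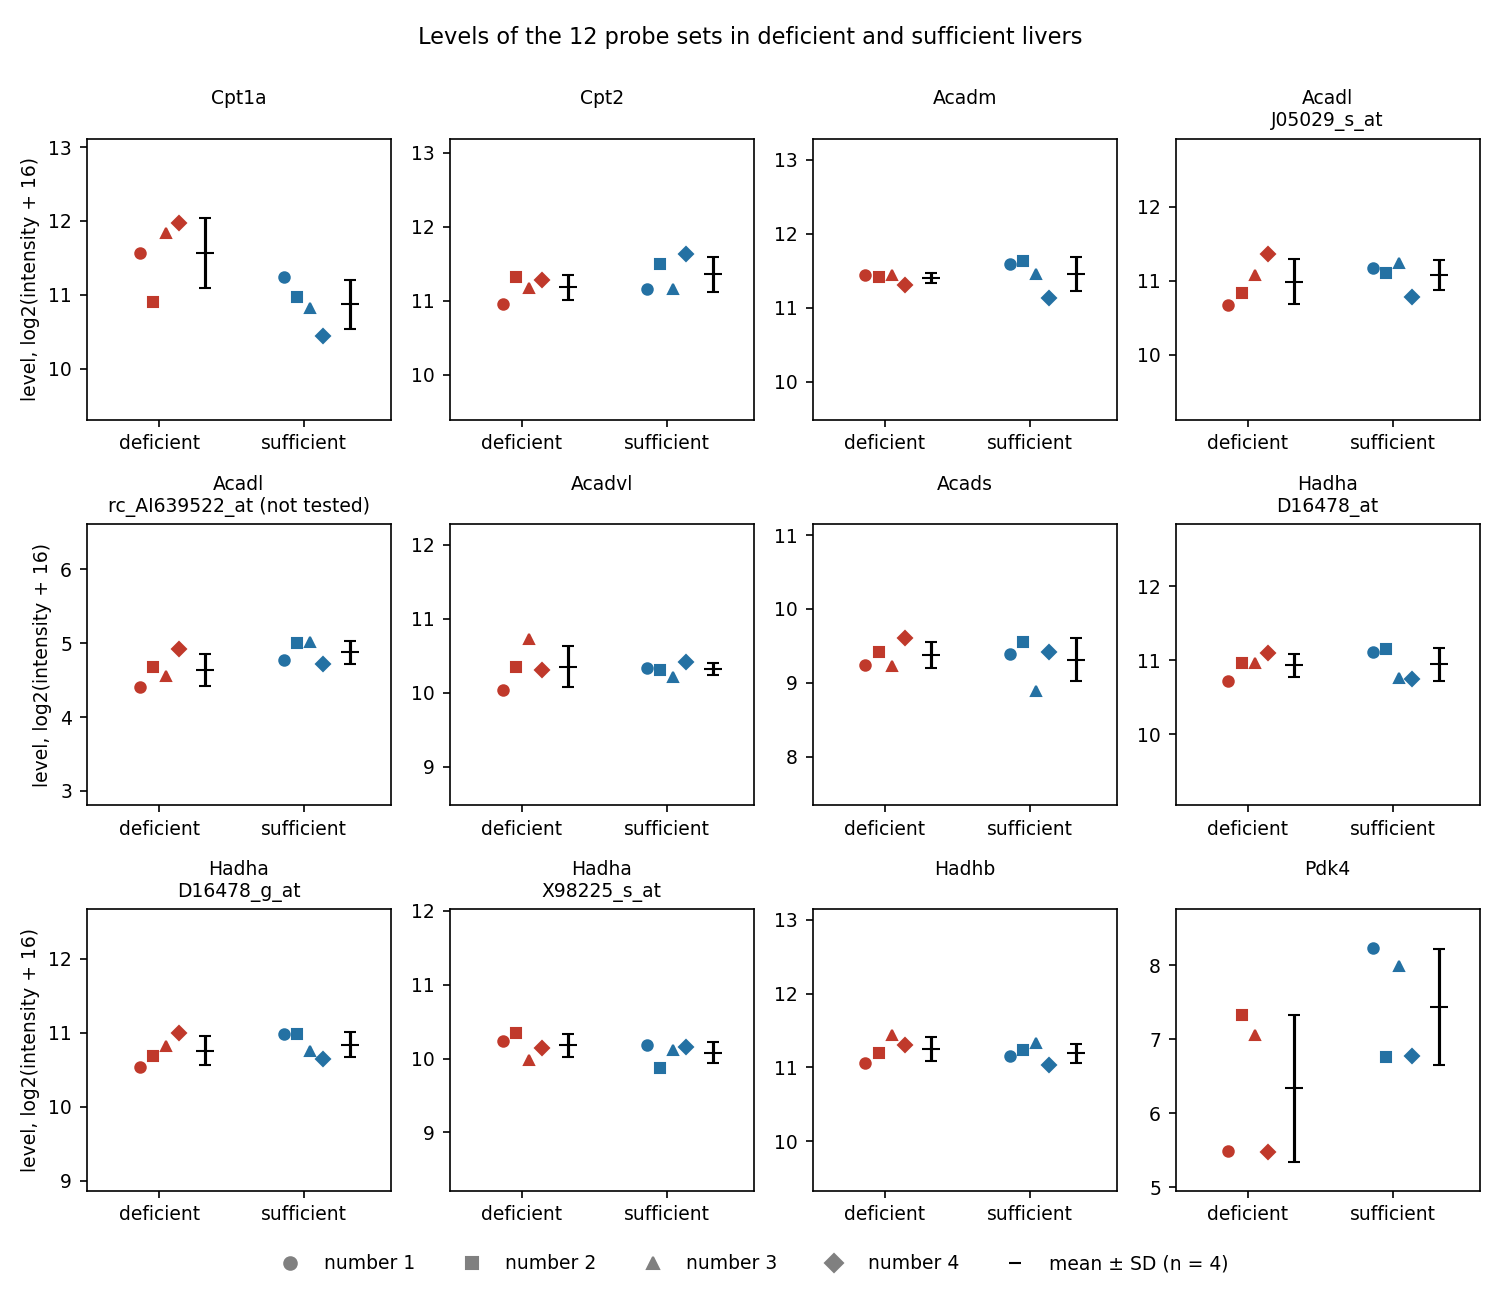
Level of each of the 12 member probe sets, as log2 of the scaled intensity plus 16, in 4 deficient livers (red) and 4 sufficient livers (blue); symbols give the liver's number, black bars the mean ± SD, and every panel spans the same range of the axis. Deficient and sufficient livers overlap in all 11 tested panels, and Cpt1a and Pdk4 show the widest spread.

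Cpt1a encodes the liver form of carnitine palmitoyltransferase 1 on the outer mitochondrial membrane, the step at which malonyl-CoA limits the entry of long-chain fatty acids. Its level was 11.57, 10.90, 11.83 and 11.97 in deficient livers 1 to 4, against 11.25, 10.97, 10.82 and 10.45 in sufficient livers 1 to 4. Of the deficient livers, 1, 3 and 4 lay above every sufficient liver, and deficient liver 2 lay among the sufficient ones. The mean was 11.57 ± 0.48 in deficient and 10.87 ± 0.33 in sufficient livers (SD, n = 4 each). The difference of 0.70 (SE 0.23), or 1.62-fold, had a 95% interval from 0.19 to 1.21 and did not pass (limma adjusted p = 0.190). Without deficient liver 2 the difference was 0.92 and passed (limma adjusted p = 0.0435); it was the only one of 22 alternative fits in which any member probe set passed, and in the other fits the Cpt1a difference lay between 0.55 and 0.82.

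The arrays made from the larger and the smaller amount of RNA gave nearly the same Cpt1a level within a liver. The 2 µg array differed from the 10 µg array of the same number by -0.03, -0.01 and 0.04 in deficient livers 1, 2 and 4, and by -0.07, -0.07 and 0.15 in sufficient livers 1, 2 and 4. The low level of deficient liver 2 was thus present on both of its arrays, at 10.90 from 10 µg and 10.89 from 2 µg. With each amount alone, the diet difference was 0.70 (SE 0.24, n = 4 each) from 10 µg and 0.59 (SE 0.28, n = 3 each) from 2 µg, and neither passed in limma (adjusted p = 0.230 and 0.537). Liver 3 has no 2 µg array, so values at a single amount, here and below, rest on different sets of livers and do not isolate the amount. No member probe set passed at a single amount, against 1.35% of all tested probe sets from 10 µg and 0.629% from 2 µg. At an unadjusted p under 0.05 the members were Cpt1a and Pdk4 from 10 µg (background 12.2%) and none from 2 µg (background 9.99%).

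Pdk4 encodes a kinase that phosphorylates and switches off the pyruvate dehydrogenase complex, sparing pyruvate when fatty acids are burned, and its transcript is known to be raised by fasting and by PPAR-alpha. Its level was 5.48, 7.33, 7.06 and 5.48 in deficient livers 1 to 4, against 8.23, 6.75, 7.99 and 6.77 in sufficient livers 1 to 4. Deficient livers 1 and 4 lay below every sufficient liver, whereas deficient livers 2 and 3 lay between sufficient livers 4 and 3. As scaled intensities, the probe set read 28.7, 145, 117 and 28.5 in deficient livers, against 285, 92.0, 238 and 93.3 in sufficient livers. The mean was 6.34 ± 1.00 in deficient and 7.44 ± 0.78 in sufficient livers (SD, n = 4 each). The difference of -1.10 (SE 0.49) had a 95% interval from -2.17 to -0.03 and did not pass (limma adjusted p = 0.335).

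The Pdk4 probe set was dim. Deficient livers 1 and 4 lay under 6.196, the mean level below which probe sets were left out, so its size varied with the constant added before the log: -1.34 after adding 1 and -0.75 after adding 64. It did not pass with either (limma adjusted p = 0.341 and 0.329). The arrays of a liver also differed more than for Cpt1a. From 2 µg the level of deficient liver 4 was 6.04 and from 10 µg it was 4.92, whereas sufficient liver 4 read 6.18 from 2 µg and 7.36 from 10 µg. With each amount alone the diet difference was -1.39 (SE 0.52) from 10 µg and -0.78 (SE 0.59) from 2 µg (limma adjusted p = 0.285 and 0.749). The pooled spread within a diet, 0.90, exceeded that of 99.3% of all tested probe sets, for which the median was 0.24.

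**Figure D2:**
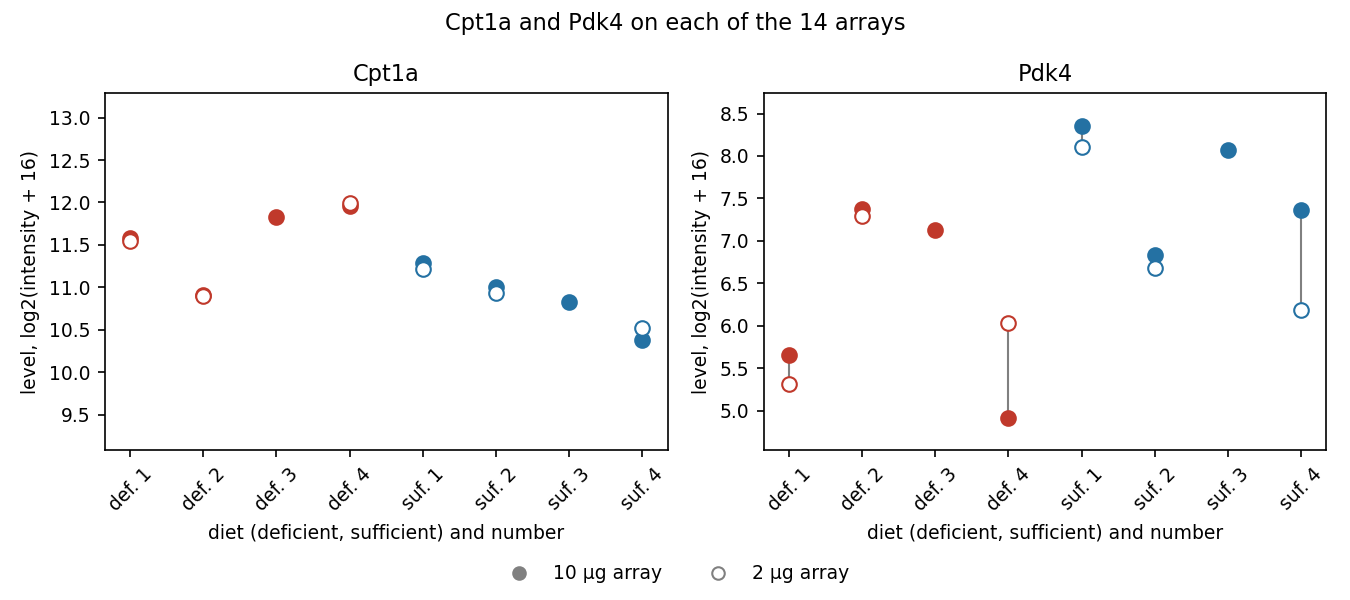
Level of Cpt1a (left) and Pdk4 (right), as log2 of the scaled intensity plus 16, on each of the 14 arrays, by diet and number; filled points are 10 µg arrays, open points 2 µg arrays, and lines join arrays of the same diet and number. The pairs of points nearly coincide for Cpt1a, while for Pdk4 they lie 1.12 apart in deficient liver 4 and 1.18 apart, in the other direction, in sufficient liver 4.

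Because Cpt1a and Pdk4 are often named together as targets of PPAR-alpha and RXR and here had differences of opposite sign, their promoter windows are shown, with that of Acadvl as the window that held a receptor-type repeat. RefSeq windows of GRCr8, from 250 bases before to 50 after the gene's start, were found for 8 of the 9 genes by symbol. They were searched on both strands for AGGTCA repeated directly with any 1 base between the copies (the type bound by PPAR with RXR) or any 2 or 5 bases between them (the types bound by retinoic acid receptors with RXR), allowing up to 2 mismatches over the 12 fixed letters, and for the exact GC box GGGCGG. The GC box shares no stretch with the repeats. The windows lie at chr1:209995910-209996209 on the plus strand (Cpt1a), chr4:34568280-34568579 on the minus strand (Pdk4) and chr10:55236656-55236955 on the minus strand (Acadvl). Capitals mark GC boxes in the Pdk4 window and the repeat in the Acadvl window, and the Cpt1a window held no match to any of the 4 motifs.
Cpt1a: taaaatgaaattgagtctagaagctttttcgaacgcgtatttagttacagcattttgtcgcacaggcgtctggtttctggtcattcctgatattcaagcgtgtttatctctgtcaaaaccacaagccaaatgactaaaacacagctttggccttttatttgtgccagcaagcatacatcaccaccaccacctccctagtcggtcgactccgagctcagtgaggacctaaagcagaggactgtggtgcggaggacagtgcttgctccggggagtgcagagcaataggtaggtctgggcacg
Pdk4: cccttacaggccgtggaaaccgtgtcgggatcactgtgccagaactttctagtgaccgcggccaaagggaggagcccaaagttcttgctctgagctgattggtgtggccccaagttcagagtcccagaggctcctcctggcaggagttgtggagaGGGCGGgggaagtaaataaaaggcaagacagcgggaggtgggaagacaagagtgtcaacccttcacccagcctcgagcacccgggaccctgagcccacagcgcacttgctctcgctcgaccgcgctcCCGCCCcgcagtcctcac
Acadvl: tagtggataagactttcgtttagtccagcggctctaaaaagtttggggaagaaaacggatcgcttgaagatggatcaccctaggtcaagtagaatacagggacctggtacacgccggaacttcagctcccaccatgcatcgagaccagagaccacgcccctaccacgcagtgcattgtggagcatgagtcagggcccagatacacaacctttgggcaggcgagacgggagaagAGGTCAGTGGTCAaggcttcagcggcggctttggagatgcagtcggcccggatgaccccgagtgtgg

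The Acadvl repeat, AGGTCAGTGGTCA, had 1 mismatch and lay at -17 to -5 from the start. It was the 1 repeat spaced by 1 base among the 8 windows, and 3.77% of all 33469 windows held such a repeat. The repeats spaced by 2 and by 5 bases, held by 3.16% and 2.83% of all windows, were found in 0 of the 8. GC boxes were found in 6 of the 8, against 33.1% of all windows, with 2 in the Pdk4 window and none in those of Cpt1a and Acadvl. The single box in the Hadha window is the same hexamer as one of those in the Hadhb window, within the bases their windows share, so it counts for both genes. The box is made of G and C alone, and 7 of the 8 windows had a GC content of 54.3% to 66.7%, above the median of 51.7% over all windows, while that of Cpt1a was 48.3%. A match here describes letters and not a site, and windows of this length leave out distant and intronic elements.

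Cpt2, the inner-membrane enzyme that returns the acyl group from carnitine to CoA, stood at 10.95, 11.33, 11.17 and 11.28 in deficient livers 1 to 4, against 11.16, 11.49, 11.16 and 11.63 in sufficient livers 1 to 4. The lowest value was deficient and the highest pair sufficient, with overlap between them. The difference was -0.18 (SE 0.14, 95% interval -0.49 to 0.13, limma adjusted p = 0.643). With n = 4 each, the interval leaves room for a level down to 0.714 times and up to 1.10 times that of sufficient livers.

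The acyl-CoA dehydrogenases start the spiral, each on acyl chains of its own length. Acadvl acts on the longest chains at the inner membrane. Its level was 10.04, 10.35, 10.72 and 10.30 in deficient livers 1 to 4, and 10.33, 10.31, 10.21 and 10.41 in sufficient livers 1 to 4. The deficient values enclosed all the sufficient ones. The difference was 0.04 (SE 0.14, 95% interval -0.28 to 0.35), and the SD was 0.28 in deficient and 0.082 in sufficient livers.

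Acadl, a dehydrogenase of long and branched chains, had a bright probe set and a dim one. The bright probe set read 10.67, 10.83, 11.08 and 11.37 in deficient livers 1 to 4, against 11.17, 11.11, 11.23 and 10.78 in sufficient livers 1 to 4, with liver 4 the highest among the deficient and the lowest among the sufficient. The difference was -0.08 (SE 0.16, 95% interval -0.44 to 0.27). The dim probe set read scaled intensities of 5.13 to 14.2 in deficient and 10.4 to 16.3 in sufficient livers, lay under the limit for testing in all 8, and was not tested.

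Acadm, the medium-chain dehydrogenase whose human deficiency causes fasting hypoglycaemia with few ketones, had the narrowest spread among deficient livers. It read 11.44, 11.41, 11.43 and 11.30 in deficient livers 1 to 4, against 11.59, 11.64, 11.45 and 11.13 in sufficient livers 1 to 4, so that the deficient values lay inside the sufficient range. The difference was -0.05 (SE 0.12, 95% interval -0.33 to 0.22). Acads, the short-chain enzyme, read 9.25, 9.41, 9.23 and 9.60 in deficient livers 1 to 4, against 9.39, 9.56, 8.89 and 9.42 in sufficient livers 1 to 4. The highest value was deficient and the lowest sufficient, at a difference of 0.06 (SE 0.16, 95% interval -0.29 to 0.41). Limma adjusted p-values of the 4 dehydrogenases' tested probe sets lay between 0.892 and 0.954.

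Hadha and Hadhb encode the alpha and beta subunits of the trifunctional protein, which carries out the hydratase, second dehydrogenase and thiolase steps for long chains. In the RefSeq windows the genes lie head to head, Hadha on the plus strand and Hadhb on the minus strand, with starts 301 bases apart, so that 200 bases belong to the windows of both. The shared bases are in capitals in the Hadha window, chr6:31907551-31907850 on the plus strand of GRCr8, shown because these subunits are the members whose upstream sequence is common.
Hadha: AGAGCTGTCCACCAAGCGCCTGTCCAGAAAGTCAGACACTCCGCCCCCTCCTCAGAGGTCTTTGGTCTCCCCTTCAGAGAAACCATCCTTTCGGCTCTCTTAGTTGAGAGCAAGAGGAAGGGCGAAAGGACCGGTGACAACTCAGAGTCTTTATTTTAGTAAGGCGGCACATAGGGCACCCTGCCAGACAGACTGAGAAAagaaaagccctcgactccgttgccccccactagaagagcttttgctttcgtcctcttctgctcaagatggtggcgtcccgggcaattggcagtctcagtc

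Hadhb read 11.07, 11.19, 11.44 and 11.30 in deficient livers 1 to 4, against 11.16, 11.24, 11.34 and 11.03 in sufficient livers 1 to 4. Liver 3 was the highest in each diet. The difference was 0.06 (SE 0.12, 95% interval -0.20 to 0.32, limma adjusted p = 0.903). The brightest Hadha probe set, D16478_at, read 10.72, 10.96, 10.96 and 11.09 in deficient livers 1 to 4, against 11.11, 11.16, 10.76 and 10.74 in sufficient livers 1 to 4, at a difference of -0.01 (SE 0.14). Deficient and sufficient livers covered nearly the same range for this probe set.

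The second Hadha probe set, D16478_g_at, differed by -0.08 (SE 0.13) and the third, X98225_s_at, by 0.10 (SE 0.12). The first and second ordered the deficient livers alike, with liver 1 lowest and liver 4 highest, whereas on the third liver 2 was highest and liver 3 lowest. Limma adjusted p-values of the 3 lay between 0.809 and 0.988. The third probe set also gave the largest diet difference of Hadha at a single amount, 0.30 (SE 0.15, limma adjusted p = 0.579) from 2 µg against 0.001 from 10 µg.

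For the 9 tested probe sets other than those of Cpt1a and Pdk4, the 95% intervals of the diet difference ran at most from -0.49 to 0.41. Changes by more than 1.40-fold down or 1.33-fold up lay outside every one of these intervals, and smaller ones did not.

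**Figure D3:**
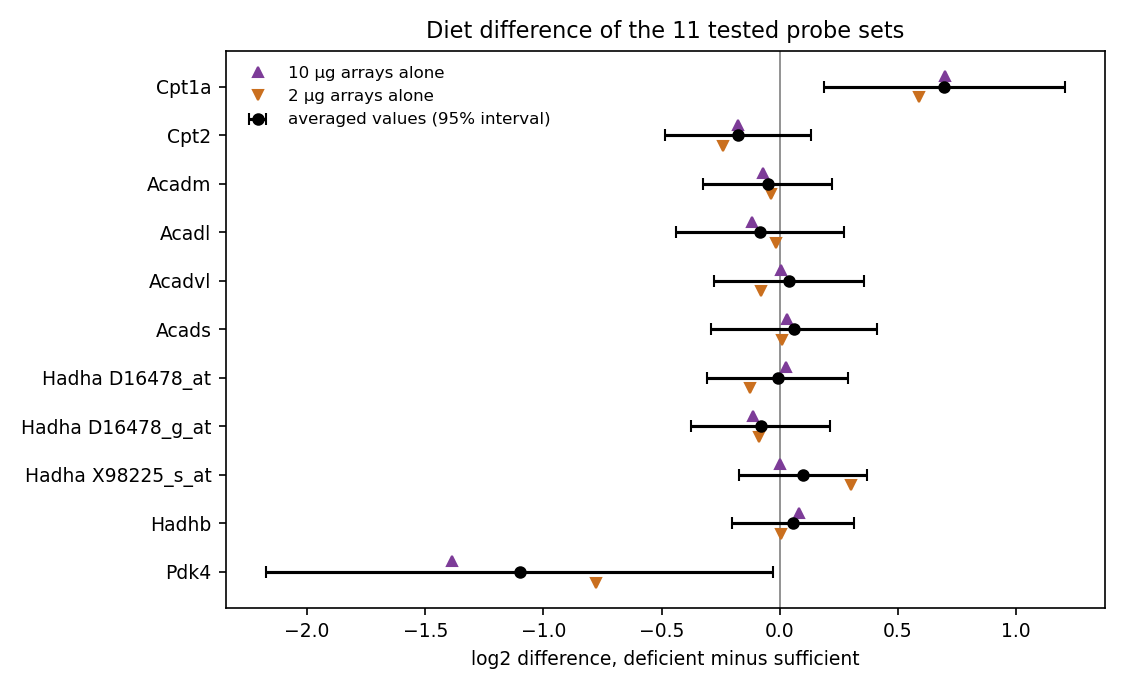
Diet difference (deficient minus sufficient, log2 scale) of the 11 tested member probe sets; black points with bars give the value over 4 livers per diet and its 95% interval, triangles the value from 10 µg arrays alone (purple) or 2 µg arrays alone (orange). Cpt1a at 0.70 and Pdk4 at -1.10 stand away from 0, and the other 9 lie between -0.18 and 0.10.

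The genes whose 8 liver values lay nearest to those of Cpt1a, after each gene was centred on its own mean, were Abcb4, Adcy6 and Il33, with a root mean square difference of 0.21, 0.22 and 0.23 on the log2 scale, against 0.50 for the variation of Cpt1a itself. Abcb4, which moves phospholipid into bile, and Il33, an alarmin cytokine, rose in deficient livers, by 0.80 and 0.89 (limma adjusted p = 0.0385 and 0.0335), while Adcy6, an adenylate cyclase, was at 0.56 and did not pass (limma adjusted p = 0.258). The calls of Abcb4 and Il33 were both lost when deficient liver 1, 3 or 4 or sufficient liver 2, 3 or 4 was left out, at adjusted p of up to 0.125 and 0.128. Both were also lost at each RNA amount alone. There the limma adjusted p from 10 µg and 2 µg was 0.0771 and 0.214 for Abcb4, and 0.0569 and 0.340 for Il33. For Pdk4 the nearest were Rdh16, a retinol dehydrogenase, at 0.48, Eln, the elastin gene, at 0.49, and Pex11a, a peroxisome division factor, at 0.56, against 0.95 for Pdk4 itself. Their diet differences were -0.88, -0.64 and -0.52, and none of the 3 passed (limma adjusted p = 0.252, 0.505 and 0.453). This likeness describes 8 averages that share the diet groups.

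Other genes of the pathway were read from lists, with the brightest probe set standing for a gene. Over all 3135 tested genes with 1 symbol, 26 rose and 33 fell, with a median difference of 0.05, and 460 of the 3135 had an unadjusted p under 0.05. Of all tested probe sets, 0.744% passed as higher and 0.973% as lower. In the list on fatty acid entry and the carnitine shuttle, 1 of 12 tested genes fell, 0 rose, 3 had an unadjusted p under 0.05, and the median was -0.03. The gene that fell was Acsl4, an acyl-CoA synthetase with a preference for arachidonic acid, at -0.65 (SE 0.14, limma adjusted p = 0.0443) and at -0.996 (SE 0.17, limma adjusted p = 0.0141) by its other probe set. The call of the brighter probe set was lost when deficient liver 1, 3 or 4 or sufficient liver 2, 3 or 4 was left out, at adjusted p of up to 0.145. That of the other was lost without deficient liver 4 or sufficient liver 3 (limma adjusted p = 0.0520 and 0.0542), and both were lost at each RNA amount alone. The fatty acid transporter Slc27a2 was at 0.38 (SE 0.084, limma adjusted p = 0.0514). Its deficient livers all lay above its sufficient ones, and 8.91% of all tested probe sets likewise did not overlap. Slc27a2 passed in some other settings, among them the filter at the 60th percentile (limma adjusted p = 0.0340), but in no fit that left out 1 liver. The major liver synthetase Acsl1 was at -0.02 (SE 0.09), the carnitine-acylcarnitine carrier Slc25a20 at -0.06 (SE 0.15) and Cpt1b, the muscle form of the first transferase, at -0.07 (SE 0.14).

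In the list on the beta-oxidation spiral and electron transfer, which holds 6 of the members, none of 15 tested genes passed in limma, 3 had an unadjusted p under 0.05, against 460 of 3135 over all tested genes, and the median was 0.04. These 3 were higher in deficient livers: Acadsb, the dehydrogenase of short branched chains, at 0.61 (SE 0.25), the hydratase Echs1 at 0.44 (SE 0.17) and Decr1, a reductase needed for unsaturated chains, at 0.40 (SE 0.17), with limma adjusted p of 0.282, 0.267 and 0.305. Echs1 read 11.43, 11.48, 11.77 and 11.42 in deficient livers 1 to 4, against 11.39, 11.24, 10.57 and 11.15 in sufficient livers 1 to 4, with no overlap, as in 8.91% of all tested probe sets. The thiolase Acaa2 was at -0.003 (SE 0.11), and Etfa and Etfdh, which pass electrons on to the respiratory chain, were at -0.02 (SE 0.11) and -0.13 (SE 0.17).

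Of the list on ketone body metabolism 4 genes were tested and none passed in limma, with a median of -0.07 and 1 unadjusted p under 0.05. Bdh1, the dehydrogenase that forms 3-hydroxybutyrate, read 11.08, 11.35, 11.28 and 11.27 in deficient livers 1 to 4, against 11.51, 11.43, 11.82 and 11.48 in sufficient livers 1 to 4. All 4 deficient values lay below all 4 sufficient ones, and 8.91% of all tested probe sets likewise did not overlap. The difference was -0.32 (SE 0.12, limma adjusted p = 0.254). Acat1, the mitochondrial acetoacetyl-CoA thiolase, was at 0.14 (SE 0.14), and the monocarboxylate transporters Slc16a1 and Slc16a7 were at -0.28 (SE 0.18) and 0.30 (SE 0.15). The other 5 genes of that list were not analysed here.

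In the list on the pyruvate dehydrogenase complex none of 10 tested genes passed in limma, with a median of -0.12. By the brightest probe sets, Pdk4 was the 1 gene with an unadjusted p under 0.05. The dimmest probe set of Dlat was at -0.49 (SE 0.17, limma unadjusted p = 0.0142, adjusted p = 0.207), and its others were at -0.29 and -0.19. The kinases Pdk2 and Pdk1, related to Pdk4, were at 0.16 (SE 0.13) and -0.18 (SE 0.14). In the list on malonyl-CoA and AMPK control none of 4 tested genes passed in limma and 1 had an unadjusted p under 0.05. That gene was Acaca, the acetyl-CoA carboxylase that makes malonyl-CoA, whose level was 6.72, 6.31, 6.73 and 6.94 in deficient livers 1 to 4, against 6.79, 7.04, 7.72 and 7.36 in sufficient livers 1 to 4. Its difference was -0.55 (SE 0.23, limma adjusted p = 0.290), and deficient liver 4 overlapped sufficient liver 1.

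Among regulators and other targets of PPAR-alpha, 1 of 12 tested genes fell, 0 rose, 4 had an unadjusted p under 0.05, and the median was 0.06. Plin2, which coats lipid droplets, fell by 1.01 on the log2 scale (SE 0.18, limma adjusted p = 0.0163) by its brighter probe set and was at -0.28 by the other, which did not pass. Ppara itself was at 0.11 (SE 0.17) and Ucp2, a mitochondrial carrier, at 0.35 (SE 0.15), and neither passed. Besides Plin2 and Ucp2, the genes with an unadjusted p under 0.05 were Acot2 at -0.81 (SE 0.26) and Rxrb at 0.35 (SE 0.14). Neither passed in limma (adjusted p = 0.168 and 0.277). The other RXR genes, Rxra and Rxrg, were at 0.001 (SE 0.12) and -0.03 (SE 0.15). Cyp4a1, a fatty acid hydroxylase, was at 0.42 by its brightest probe set (limma adjusted p = 0.456). By the next brightest it was at 0.61 (SE 0.16, limma adjusted p = 0.0914), which did not pass. By its dimmest it rose by 0.75 (SE 0.16, limma adjusted p = 0.0486). That call was lost without any single liver other than sufficient liver 1, at adjusted p of up to 0.164. Of 10 tested peroxisomal genes, 1 fell, the thiolase Acaa1b at -1.16 (SE 0.15, limma adjusted p = 0.00187). The median of the list was -0.20, and 5 of the 10 had an unadjusted p under 0.05. Besides Acaa1b these were Acox2, a branched-chain acyl-CoA oxidase, at 0.65 (SE 0.18), Ech1, an isomerase of unsaturated chains, at 0.64 (SE 0.21), Ehhadh, the peroxisomal bifunctional enzyme, at 0.45 (SE 0.20), and the reductase Decr2 at -0.44 (SE 0.16). These 4 did not pass in limma (adjusted p of 0.110 to 0.327). Without sufficient liver 2 Acox2 passed at 0.82 (limma adjusted p = 0.0274), and without deficient liver 1 Ech1 passed at 0.86 (limma adjusted p = 0.0183).

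**Figure D4:**
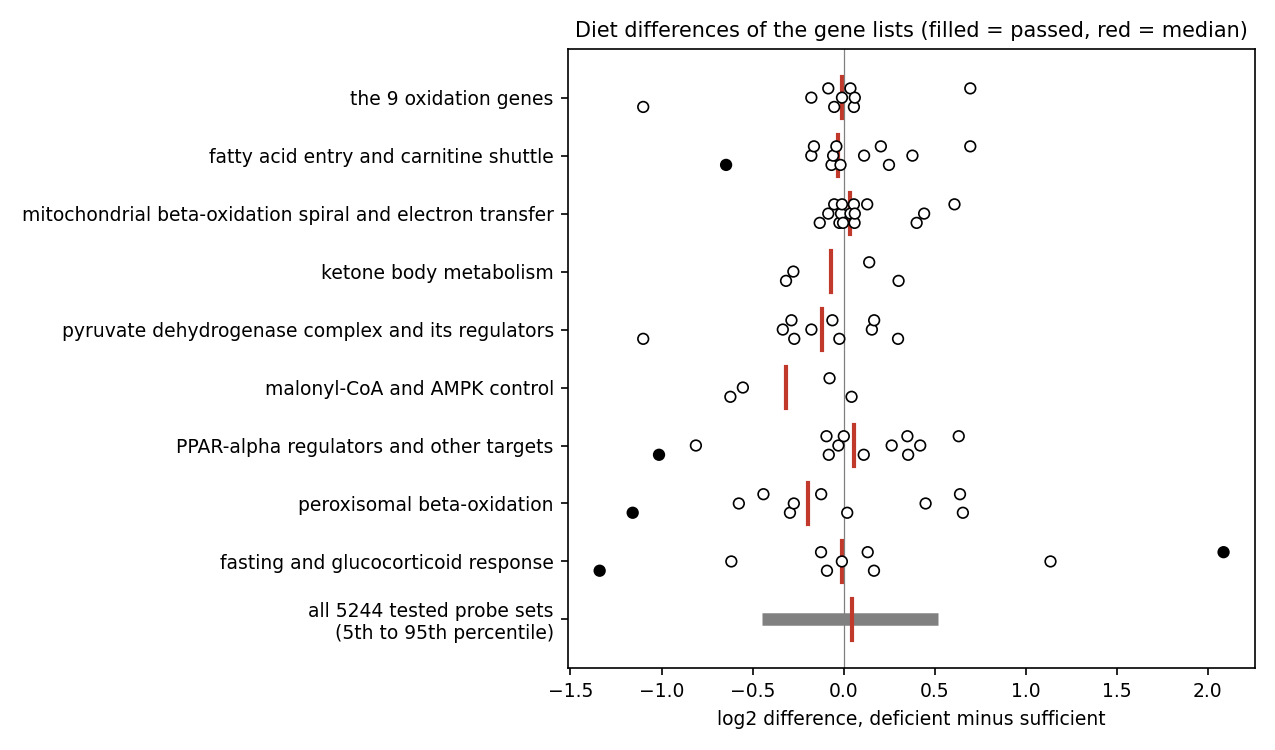
Diet difference (deficient minus sufficient, log2 scale) of each tested gene by its brightest probe set, in the 9 oxidation genes and in 8 lists of related genes; filled points passed, red lines are medians, and the grey bar spans the 5th to 95th percentile of all 5244 tested probe sets, -0.45 to 0.52. Of the 9 oxidation genes, Cpt1a lies above that bar and Pdk4 below it, and none is filled.

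The labels do not give the hour of killing or the time since feeding. In the list on fasting and the glucocorticoid response, 1 of 9 tested genes rose and 1 fell, these being the 2 with an unadjusted p under 0.05, and the median was -0.01. Sds, a serine dehydratase, rose by 2.09 (SE 0.34, limma adjusted p = 0.0101) and the pyruvate kinase Pklr fell by 1.34 (SE 0.23, limma adjusted p = 0.0147). Igfbp1, which falls with insulin, read 11.80, 10.98, 10.45 and 12.42 in deficient livers 1 to 4, against 11.33, 10.97, 10.50 and 8.31 in sufficient livers 1 to 4, and Pck1, an enzyme of glucose synthesis, was at -0.62 (SE 0.40). Neither passed in limma (adjusted p = 0.442 and 0.564). The part of these genes' differences in the values of Cpt1a and Pdk4 was not tested.

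A summed level of markers is the log2 of their values summed on the linear scale, so the brightest markers weigh most. Hepatocyte markers were bright in every liver: the 9 tested, among them Alb, Ttr and Apoa1, had a summed level of 17.66 to 17.88 in deficient and 17.40 to 17.76 in sufficient livers. All 9 differences were positive and none passed in limma, with 3 at an unadjusted p under 0.05. Of the 6 erythroid markers, 4 fell in deficient livers (Alas2, Hba-a3, Hbb and Hbb-b1, at -1.46 to -0.98), and the summed level was 11.99 to 12.75 in deficient against 13.65 to 13.96 in sufficient livers. Of the 6 macrophage markers, 1 passed, Lgals3 at 0.77, and 5 did not, with a median of 0.30 and sums of 13.11 to 13.51 in deficient against 12.79 to 12.91 in sufficient livers. The brightest, Ctss, was at 0.65 (limma adjusted p = 0.0706). Ctss and Lgals3 did not overlap between the diets, as in 8.91% of all tested probe sets, whereas C1qb, Cd14, Clec4f and Lyz2 did by their brightest probe sets. Of the 4 endothelial markers, 1 fell, Lyve1 at -1.04, with sums of 9.02 to 9.34 in deficient and 9.63 to 9.88 in sufficient livers. The markers did not move together: Aqp1 was at -1.04 (limma adjusted p = 0.0563), Kdr at -0.02 and Pecam1 at 0.22, and none of these passed. Of the 7 stellate markers, 1 passed, Vim at 0.80, whereas 5 had negative differences that did not pass, the largest that of Col1a1 at -0.85 (limma adjusted p = 0.120). Dimmer probe sets of Col1a1 lay between -0.28 and -0.07 and did not pass either (limma adjusted p of 0.538 to 0.928). The stellate median was -0.24, with sums of 11.11 to 11.41 in deficient and 11.04 to 11.54 in sufficient livers. Of the bile duct and muscle markers, 0 of 4 and 0 of 3 passed in limma, with 2 and 1 at an unadjusted p under 0.05. The Lgals3 call was lost without any single liver and that of Vim without any but deficient liver 1 or 3 (limma adjusted p of up to 0.133 and 0.0939). In bulk RNA, fewer cells of a type and less RNA per cell cannot be told apart, and the part of these markers in the members' values was not tested. As a sign of RNA quality, 3' over 5' signal of GAPDH, as a log2 ratio, averaged 0.788 in deficient and 0.726 in sufficient livers (exact permutation test, two-sided, p = 0.743). That of beta-actin averaged 0.537 in deficient and 0.632 in sufficient livers (exact permutation test, two-sided, p = 0.457), and 0.0286 is the smallest p that 70 splits allow.

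The amount of RNA was the other factor on the arrays. With 6 arrays from 2 µg and 8 from 10 µg, and diet as a covariate, 0 of 5244 probe sets passed in limma and 6.62% had an unadjusted p under 0.05. With the pairs of arrays of the same diet and number as a block, 2 passed (0.0381%), and 12% had an unadjusted p under 0.05. No member passed in either fit. Without the block the differences, 2 µg minus 10 µg, lay between -0.36 (SE 0.44, Pdk4) and 0.08 (SE 0.11, Hadha D16478_at). With it they lay between -0.23 (SE 0.098, Acads) and 0.06 (SE 0.056, Hadha D16478_at), and Pdk4 was at -0.15 (SE 0.25). At an unadjusted p under 0.05 there were 0 of 11 without the block and 1 with it, Acads (limma adjusted p = 0.373). For the interaction, which asks whether the diet difference depends on the amount, 0 of 5244 probe sets passed in limma, 1.83% had an unadjusted p under 0.05, and 0 of the 11 member probe sets did. The Pdk4 interaction was 0.61 (SE 0.89) and that of Cpt1a was -0.11 (SE 0.41). This fit took the 14 arrays as independent, so those SEs include the spread between livers. Liver 3, which has no 2 µg array, also enters both values, so they do not isolate the amount. When the correlation of paired arrays was modelled, 0 of 5244 probe sets passed in limma, and 212 had an unadjusted p under 0.05. Within pairs, 2 µg minus 10 µg was -0.03 to 0.04 (deficient) and -0.07 to 0.15 (sufficient) for Cpt1a. For Pdk4 it was -0.34 to 1.12 and -1.18 to -0.16.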

How the data were processed

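Total RNA of liver was hybridised to 14 single-channel Affymetrix rat arrays. The authors deposited 1 intensity per probe set and array on a linear scale. The sources used here do not give the program or its scaling. The trimmed mean intensity (2% off each end) of the deposited arrays lay between 1001.9 and 1002.1, and the median between 175.1 and 231, so arrays had been scaled.

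The 59 control probe sets were left out and the rest of each array was brought to a trimmed mean of 500. Values were taken as log2 of intensity plus 16, which understates changes of dim genes. Probe sets whose mean lay below the 40th percentile (6.196) were dropped, and 5244 stayed. Symbols came from the platform annotation, in which 7006 probe sets had 1 symbol, 308 several and 1426 none listed.

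A mean shift between RNA amounts, taken from the 6 array pairs, was split evenly between both amounts and removed, and arrays of 1 diet and number were averaged. The 4 deficient and 4 sufficient values went through lmFit and eBayes (with trend) of limma 3.58.1 under R 4.3.3, two-sided, with Benjamini-Hochberg adjustment. Amount and interaction used 14 separate arrays. Deviations from the group means correlated at 0.202 to 0.351 in all 6 pairs of 1 diet and number, against -0.254 to 0.124 for different numbers. Deviations cancel within a group, so a positive correlation within pairs itself lowers those for different numbers, and that contrast is partly built in. The pairing rests on the shared number and on the correlations within pairs. Across diets the same number gave -0.0763 to 0.0672. The fits were also run on simulated arrays with known changes and normal noise, and the outcome is not given here.

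Members, lists and tests were chosen with earlier results of these data known. The rule for named genes takes every member probe set, a set of pathway genes chosen by role, list genes that passed, and the 3 genes nearest to Cpt1a and to Pdk4. Acadsb, Acot2, Acox2, Aqp1, C1qb, Cd14, Clec4f, Col1a1, Cpt1b, Ctss, Decr2, Dlat, Ech1, Igfbp1, Kdr, Lyz2, Pck1, Pecam1, Rxra, Rxrb, Rxrg, Slc16a1, Slc16a7 and Slc27a2 were added with their values in view. Other settings tried were scalings, pseudocounts, filters, variance models, weights, amounts, blocks, and leaving out each liver.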

Additional observations from a re-analysis of the deposited data

How the results depend on the processing

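The number of probe sets called by diet, 90, became 33 with the 2 µg arrays alone, 349 with 14 separate arrays and amount as a covariate, and 250 with a random replicate block of diet and number. It ranged from 52 (without deficient liver 4) to 96 in the fits that left out 1 liver, and was 58 without sufficient liver 3. With the number across diets as a replicate block it was 77, and 0 member probe sets passed. The number of member probe sets called stayed at 0 in each of the 22 alternatives except that without deficient liver 2, where Cpt1a passed, so leaving out 1 liver gave 0 to 1. The median difference of the member probe sets ranged from -0.0755 to 0.0615 in those fits. Cpt1a kept a positive and Pdk4 a negative difference in every alternative in which they were tested, Pdk4 between -1.43 and -0.75, and with the filter at the 60th percentile Pdk4 was not tested. Among differences that did not pass, the sign changed in 16 of 241 diet fits of member probe sets, none of them of Cpt1a or Pdk4. For RNA amount the count of 0 became 2 with diet and number as a replicate block. Leaving out 1 liver gave 0 to 2 probe sets, 0 members, and a member median of -0.0666 to 0.0015. For the interaction those fits gave 0 probe sets, 0 members and a median of -0.0824 to 0.0421. The Plin2 and Pklr calls were lost with the 2 µg arrays alone (limma adjusted p = 0.115 and 0.130), as was that of Lyve1 (limma adjusted p = 0.0947). The causes were not tested. Dimness limits what is known of Pdk4 and of the second Acadl probe set.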
